A study of Mus musculus with 12 samples.

Results

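Fibronectin and the matricellular proteins, secreted matrix proteins that signal to cells more than they bear load, were followed in tumours of 3 mouse lung adenocarcinoma lines. The group was set as 10 genes: Fn1, Sparc, Tnc, Spp1, Postn, Thbs1, Thbs2, Vcan, Tgfbi and Fbn1. Members were the genes with at least 1 probe set carrying that symbol alone, and its brightest probe set, by the mean of all arrays, stood for the gene. This gave 8 genes of the 18193 that had such a probe set, since Spp1 and Fbn1 were not analysed here. The 8 have 25 probe sets in all, and 1 more probe set, shared by Thbs1 and another gene, was left out.

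Total RNA was measured on 12 Affymetrix arrays, 4 for each of the lines 344SQ, 393LN and 393P. All 3 lines came from p53R172H∆g/+ K-rasLA1/+ mice, which carry a mutant p53 allele and a latent oncogenic K-ras allele: 393P from a primary lung tumour of mouse 393, 393LN from a mediastinal node of that animal, and 344SQ from a subcutaneous tumour of mouse 344. They were kept as uncloned populations, and the labels call 344SQ highly, 393LN intermediately and 393P not metastatic. The arrays hold dissected, frozen tumours of these lines grown in syngeneic mice, so host cells are part of each sample. The hosts' age and sex and the day of dissection are not given in the sources used here, and the 344 line differs from the 393 lines in mouse of origin as well as in metastatic grade. Nothing in the labels says that the 4 samples of a line came from separate animals, so p-values measure the spread between these samples, which may be technical.

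Fibronectin is assembled by cells into fibrils through integrin receptors, and the fibrils carry many other matrix proteins. Tenascin-C, periostin, SPARC and the thrombospondins are scarce in most resting adult tissue and appear in wounds and tumour stroma, where fibroblasts, macrophages and some carcinoma cells make them. They alter adhesion, collagen assembly and the handling of growth factors such as TGF-beta, and versican adds a hydrated proteoglycan that binds hyaluronan.

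None of the 8 genes passed the test between any of the lines. Levels are given as log2(intensity + 16), and differences are between line means on that scale, where 1 unit is 2-fold. In 344SQ against 393P, 0 of 8 had an adjusted p under 0.05 (limma with Benjamini-Hochberg adjustment over all 18193 genes), where 10.5% of all genes passed, 4.86% higher and 5.62% lower. In 344SQ against 393LN it was 0 of 8 against 10.9% (3.99% higher, 6.92% lower), and in 393LN against 393P 0 of 8 against 2.45% (1.75% higher, 0.698% lower). At an unadjusted p under 0.05, limma called 2, 3 and 0 of the 8 in that order, against 23.6%, 25.7% and 15.7% of all genes. The first 2 were Postn and Tgfbi, and the 3 were Thbs1, Postn and Tnc.

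The intervals concern the measured levels of the chosen probe sets alone. Most of these were bright: by mean level Fn1 and Sparc lay above 99.6% of genes, Tnc above 98%, Postn above 97.9% and Vcan above 64.1%. Whether differences are read in full at such levels was not tested. For 7 of the 8, Thbs1 being the exception, the 95% interval of the difference lay within 2-fold in each of the 3 comparisons. Over those 7 genes the bounds ran from -0.84 to 0.79 in 344SQ against 393P, from -0.78 to 0.92 in 344SQ against 393LN and from -0.66 to 0.46 in 393LN against 393P. Of the 17 other probe sets, 4 had an interval that passed 2-fold in each comparison, among them those of Fn1 (-1.95 to 0.03 in 344SQ against 393P) and Tnc (-0.15 to 2.00 in 344SQ against 393LN). The median difference over the 8 genes was -0.00, 0.14 and -0.10, and over all genes it was -0.00, -0.02 and 0.01. In size alone the median difference was 0.22, 0.30 and 0.16 for the 8, and 0.18, 0.20 and 0.16 for all genes. The comparisons share arrays, so their values stand side by side and are not separate evidence.

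**Figure D1:**
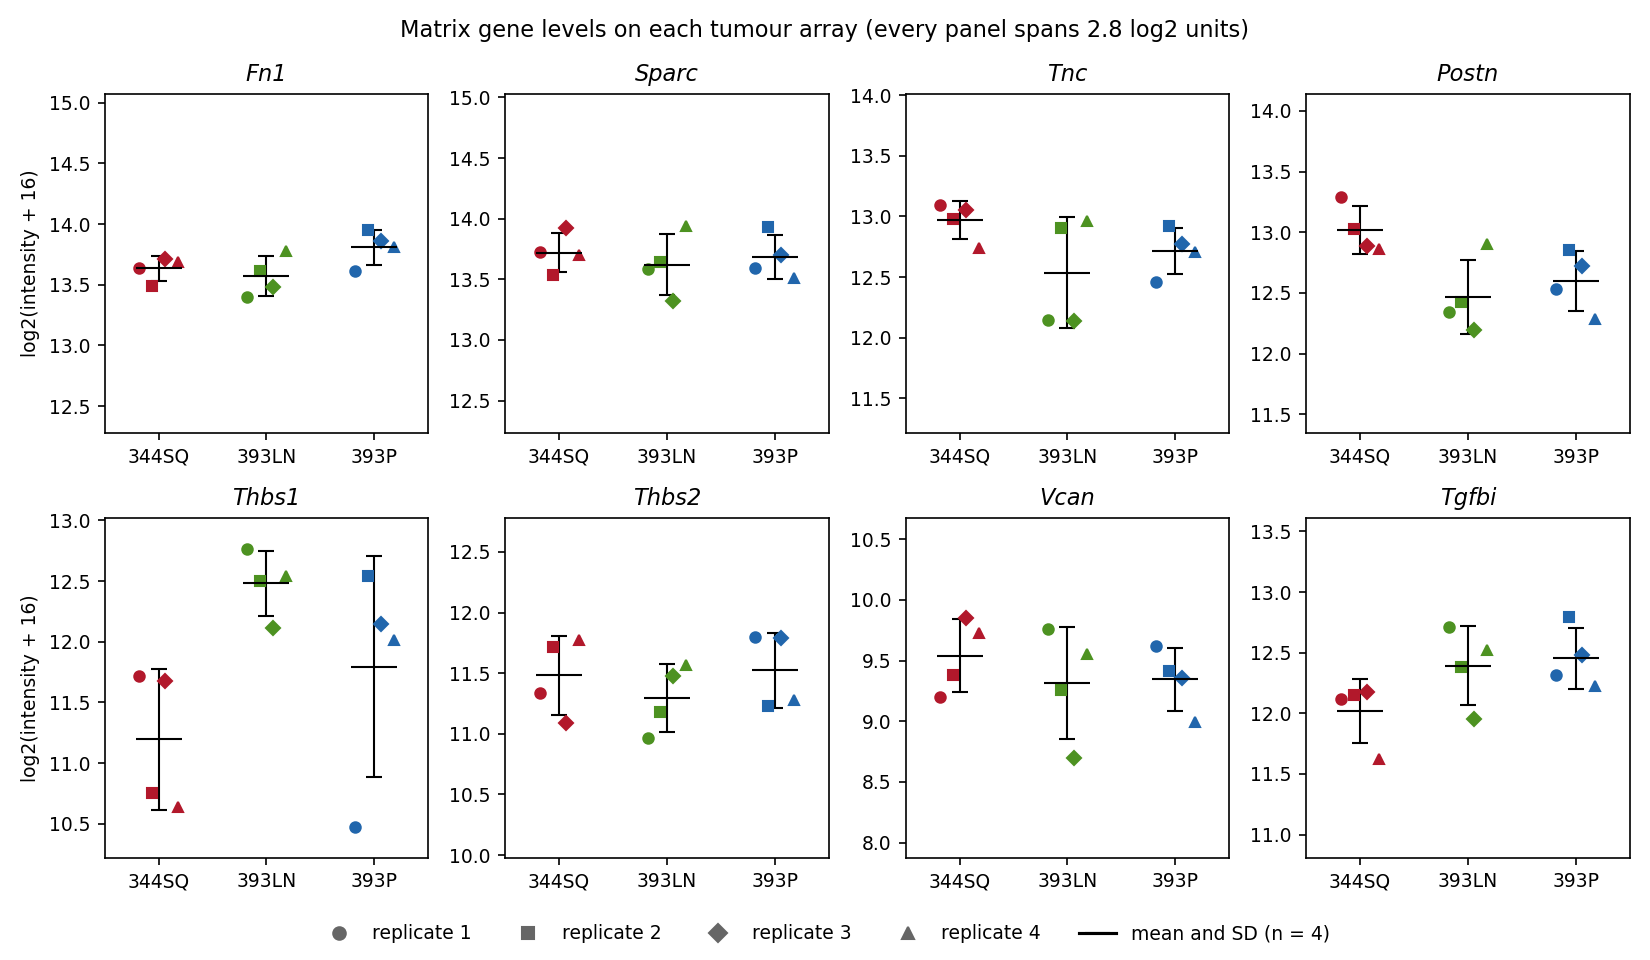
Level of each of the 8 genes on every array, as log2(intensity + 16), by line, with the line mean and SD (n = 4); marker shape gives the replicate and every panel spans the same number of log2 units. Values of the lines overlap in most panels; Thbs1 lies between 10.63 and 11.72 in 344SQ and between 12.12 and 12.76 in 393LN, and 393P replicate 1 stands at 10.48.

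Fn1, the fibril-forming scaffold of the group, was the steadiest member on its chosen probe set (1426642_at). Its values were 13.64, 13.49, 13.71 and 13.69 in 344SQ, 13.40, 13.61, 13.48 and 13.78 in 393LN, and 13.61, 13.95, 13.86 and 13.81 in 393P. The lines overlapped throughout, with 3 of the 4 arrays of 393P slightly above all those of the other lines. The SD within a line was 0.14, smaller than that of all but 13.8% of genes, for which the median was 0.23. The difference was -0.17 between 344SQ and 393P (95% interval -0.42 to 0.07, adjusted p = 0.406, limma), 0.06 between 344SQ and 393LN (-0.18 to 0.31) and -0.24 between 393LN and 393P (-0.49 to 0.01, adjusted p = 0.335).

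A second Fn1 probe set (1437218_at) did not follow that pattern closely (r = 0.54 and rho = 0.54 with the first over 12 arrays, line means subtracted). It read 9.39, 8.60, 8.87 and 8.85 in 344SQ, 9.38, 9.05, 8.18 and 9.07 in 393LN, and 8.71, 10.99, 10.65 and 9.19 in 393P. Replicates 2 and 3 of 393P stood above every other array, while its replicates 1 and 4 lay among those of the other lines. The difference from 393P was -0.96 for 344SQ (adjusted p = 0.261, limma over 34945 probe sets) and -0.96 for 393LN (adjusted p = 0.359).

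Sparc (1416589_at), which encodes a collagen-binding protein of remodelling matrix, was level across the lines. It measured 13.72, 13.53, 13.92 and 13.70 in 344SQ, 13.58, 13.64, 13.32 and 13.94 in 393LN, and 13.59, 13.93, 13.70 and 13.51 in 393P. The 3 ranges lay on top of one another. The difference of 344SQ was 0.03 against 393P (95% interval -0.28 to 0.35) and 0.10 against 393LN (-0.22 to 0.41). Both other Sparc probe sets had differences between -0.14 and 0.13 in the 3 comparisons. Over the 12 arrays, line means subtracted, 1448392_at followed the chosen one in part (r = 0.73, rho = 0.41). The dimmer 1458204_at, with a mean of 8.32, did not (r = -0.13, rho = -0.25).

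Tnc (1416342_at), the gene of the hexameric glycoprotein tenascin-C, had its highest mean in 344SQ. Its values were 13.09, 12.98, 13.05 and 12.74 there, 12.15, 12.90, 12.14 and 12.96 in 393LN, and 12.46, 12.92, 12.77 and 12.70 in 393P. The 393LN arrays fell into a high pair, which reached the 344SQ range, and a low pair. Against 393LN the difference was 0.43 (SE 0.20, 95% interval 0.00 to 0.86, adjusted p = 0.194, limma) and against 393P 0.25 (-0.18 to 0.68, adjusted p = 0.513). The second probe set of Tnc, 1456344_at, gave 0.93 against 393LN (adjusted p = 0.303) and 0.16 against 393P, with values from 6.85 to 9.03 in 344SQ alone. It followed the first loosely over the 12 arrays, line means subtracted (r = 0.50, rho = 0.58).

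Postn (1423606_at, its only probe set), which encodes periostin, a partner of tenascin-C and collagen, also had its highest mean in 344SQ. It stood at 13.29, 13.02, 12.88 and 12.86 in 344SQ, 12.34, 12.42, 12.19 and 12.90 in 393LN, and 12.53, 12.85, 12.72 and 12.28 in 393P. The lowest 344SQ array was just above the highest of 393P, and replicate 4 of 393LN reached into the 344SQ range. The difference was 0.42 against 393P (SE 0.17, 95% interval 0.04 to 0.79, adjusted p = 0.160, limma) and 0.55 against 393LN (0.17 to 0.92, adjusted p = 0.0621). Without 393LN replicate 4 the latter was 0.69 with an adjusted p of 0.0186, past the threshold, and over all alternatives its adjusted p ran from 0.0186 to 0.158.

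Sparc, Tnc and Postn were high or low on some of the same arrays of the 393 lines. All 3 were lowest on 393LN replicate 3 or, for Tnc, on replicates 1 and 3 within 0.02 of each other, and all 3 were highest on 393LN replicate 4 and on 393P replicate 2. In 393P the lowest array was replicate 4 for Sparc and Postn and replicate 1 for Tnc. Other members shared end arrays too. Thbs1, Vcan and Tgfbi were lowest on 393LN replicate 3, Fn1 and Thbs2 highest on 393LN replicate 4, and Fn1, Thbs1 and Tgfbi highest on 393P replicate 2. The windows just upstream of the transcription starts of Sparc, Tnc and Postn were picked for these shared arrays. They are shown as a description, and shared control of the 3 genes was not tested. The windows are from RefSeq's mouse annotation (GRCm38.p6), 250 bases each, of the most downstream annotated start. Capitals mark matches, on either strand, to the TATA box TATAAA and to the SMAD-type letters CAGAC, which read GTCTG on the other strand.
Sparc, minus strand of chr11:55420081-55420330: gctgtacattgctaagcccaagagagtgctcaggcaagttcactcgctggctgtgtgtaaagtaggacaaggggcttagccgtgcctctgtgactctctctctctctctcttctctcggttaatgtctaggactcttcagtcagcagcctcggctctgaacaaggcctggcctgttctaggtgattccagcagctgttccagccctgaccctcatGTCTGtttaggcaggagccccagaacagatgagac
Tnc, minus strand of chr4:64046937-64047186: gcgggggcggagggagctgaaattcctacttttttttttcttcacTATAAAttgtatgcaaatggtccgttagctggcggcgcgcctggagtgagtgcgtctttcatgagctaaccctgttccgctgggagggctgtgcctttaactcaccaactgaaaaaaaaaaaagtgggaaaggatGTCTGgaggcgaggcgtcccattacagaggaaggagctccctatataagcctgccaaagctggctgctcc
Postn, plus strand of chr3:54360857-54361106: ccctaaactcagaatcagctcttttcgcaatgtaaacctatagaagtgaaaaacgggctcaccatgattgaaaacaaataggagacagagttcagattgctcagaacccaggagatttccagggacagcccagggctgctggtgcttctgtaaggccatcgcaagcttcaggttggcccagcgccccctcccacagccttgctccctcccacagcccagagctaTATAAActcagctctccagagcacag

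The TATA letters began 26 bases before the Postn start and 205 before that of Tnc, and were not in the Sparc window. Only the exact letters TATAAA were searched, so variants such as tatataag near the end of the Tnc window were left unmarked. The CAGAC letters began 35 bases before the Sparc start and 70 before that of Tnc, and were not in the Postn window. No motif searched was therefore common to all 3 windows shown. This depends on the start chosen. The window of another annotated Postn start (chr3:54359017-54359266) held CAGAC, beginning 191 bases before that start. Over all 32851 mouse promoter windows of this length, 12.4% held TATAAA and 42.2% held CAGAC, so a match is common. The AP-1 letters TGANTCA (6.75% of all windows) and the TEAD letters GGAATG (12.6%) were in 0 of the 8 windows found for 6 of the members; no window was found for Fn1 or Thbs1. A match is a run of letters and not a measured site.

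Tgfbi (1456250_x_at), which encodes an adhesive protein of the periostin family induced by TGF-beta, leaned the other way. It measured 12.12, 12.16, 12.18 and 11.63 in 344SQ, 12.71, 12.38, 11.96 and 12.52 in 393LN, and 12.31, 12.79, 12.48 and 12.22 in 393P. All 4 arrays of 344SQ lay below the lowest of 393P, by a small gap, while 393LN replicate 3 lay inside the 344SQ range. The difference was -0.44 against 393P (SE 0.19, 95% interval -0.84 to -0.03, adjusted p = 0.175, limma) and -0.38 against 393LN (-0.78 to 0.03, adjusted p = 0.232). Its 3 other probe sets tracked it over arrays (r from 0.78 to 0.99) and gave -0.59, -0.56 and -0.44 against 393P, with adjusted p of 0.236, 0.104 and 0.279.

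Postn and Tgfbi were thus the 2 of 8 genes (25%) whose arrays did not overlap between 344SQ and 393P, where 16.7% of all genes did not. Between 344SQ and 393LN it was 1 of 8 (12.5%), Thbs1, against 17.4% of all genes, and between 393LN and 393P 0 of 8 against 10.3%. These shares of so few genes lie near the background.

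Thbs1 (1460302_at) encodes thrombospondin-1, which limits vessel growth and activates latent TGF-beta, and it had the largest difference of the 8 genes. It read 11.72, 10.75, 11.68 and 10.63 in 344SQ, 12.76, 12.50, 12.12 and 12.54 in 393LN, and 10.48, 12.54, 12.15 and 12.02 in 393P. Every 344SQ array was below every 393LN array. In 393P, 3 arrays stood above all 4 of 344SQ and replicate 1 stood below them. The mean of 344SQ was 2.44-fold lower than that of 393LN (difference -1.29, SE 0.40, 95% interval -2.15 to -0.42, adjusted p = 0.0591, limma), short of the threshold; over all alternatives its adjusted p ran from 0.0101 to 0.157.

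Thbs1 was also the most variable member. Its SD within a line was 0.64, above that of 97.4% of genes. Against 393P the difference of 344SQ was -0.60 (95% interval -1.47 to 0.27, adjusted p = 0.421), and between 393LN and 393P it was 0.69 (-0.18 to 1.55, adjusted p = 0.456). Without 393P replicate 1, limma gave -1.04 for 344SQ against 393P (adjusted p = 0.0407) and -1.29 against 393LN (adjusted p = 0.0101), both past the threshold, and 0.25 for 393LN against 393P (adjusted p = 0.757). On that array the 3' end of actin was read 1.47 times as brightly as the 5' end, a ratio that grows as RNA degrades, where the other 11 lay between 1.04 and 1.19; the part of RNA quality in the Thbs1 value was not tested.

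The second Thbs1 probe set, 1450377_at, tracked the first closely (r = 0.96 and rho = 0.94 over 12 arrays, line means subtracted). It read 10.48, 9.03, 10.07 and 9.19 in 344SQ, 11.55, 10.67, 10.91 and 11.20 in 393LN, and 8.37, 11.28, 10.86 and 10.68 in 393P. Again the arrays of 344SQ and 393LN did not overlap, and 393P replicate 1 was the lowest of all 12. The differences were -1.39 for 344SQ against 393LN (adjusted p = 0.153), -0.61 against 393P and 0.78 for 393LN against 393P.

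**Figure D2:**
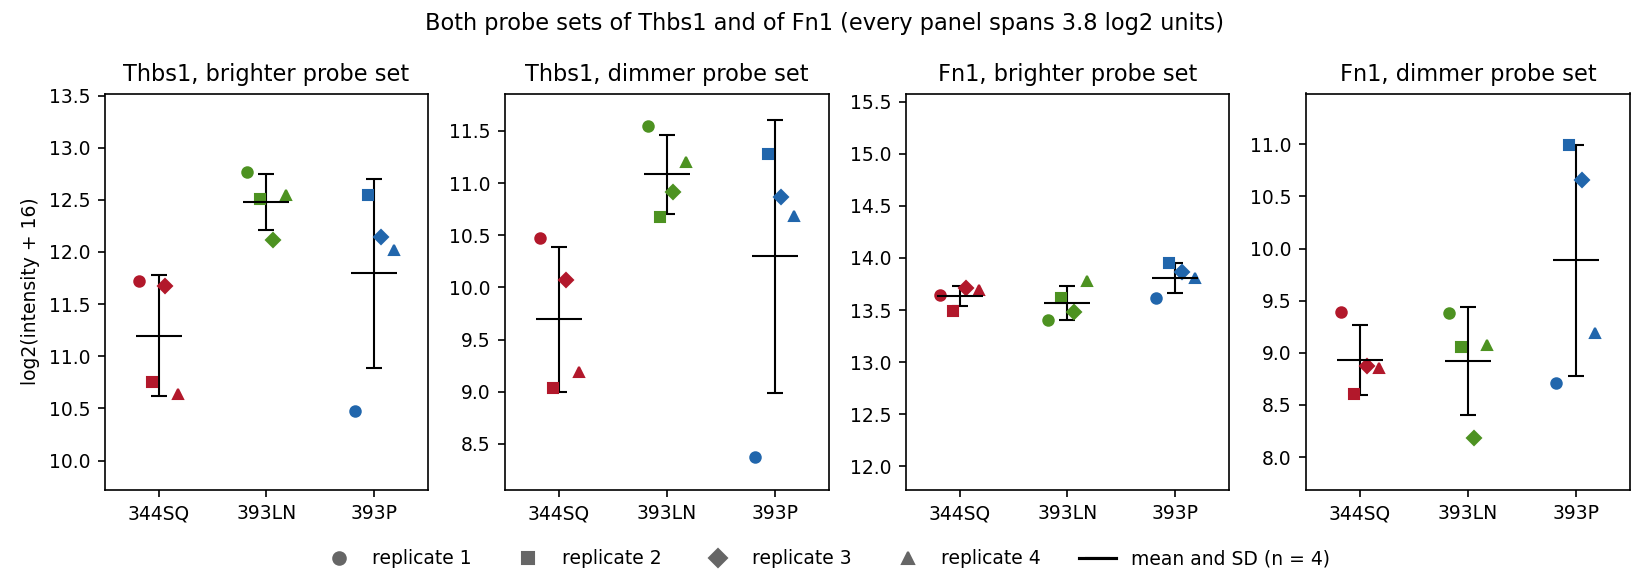
Both probe sets of Thbs1 and both of Fn1 on every array, as log2(intensity + 16), by line, with the line mean and SD (n = 4). The Thbs1 pair repeats the order of arrays (r = 0.96), and the Fn1 pair does so loosely (r = 0.54), with 393P replicates 2 and 3 at 10.99 and 10.65 on the dimmer one.

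Thbs2, the gene of the paralog thrombospondin-2, also an inhibitor of vessel growth, depended on which probe set was read. The chosen one (1422571_at) stood at 11.34, 11.72, 11.09 and 11.78 in 344SQ, 10.96, 11.18, 11.48 and 11.57 in 393LN, and 11.80, 11.23, 11.79 and 11.28 in 393P. The lines overlapped fully, and the differences were -0.04 for 344SQ against 393P (95% interval -0.48 to 0.39), 0.18 against 393LN (-0.25 to 0.62) and -0.23 for 393LN against 393P.

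Neither other Thbs2 probe set followed it over arrays (r = -0.17 for 1450663_at and r = -0.20 for 1447862_x_at). The former read 11.50, 11.41, 11.42 and 11.09 in 344SQ, 10.76, 10.93, 10.38 and 11.17 in 393LN, and 10.87, 11.35, 11.15 and 10.74 in 393P. There 393LN replicate 3 was the lowest array and replicate 4 the highest of its line, the order seen in Sparc, Tnc and Postn. Against 393LN these 2 probe sets gave 0.54 and 0.67 for 344SQ, each with an adjusted p of 0.0968, and against 393P 0.33 and 0.32 (adjusted p = 0.359 and 0.489). With the mean of all probe sets standing for the gene, the 344SQ against 393P difference of Thbs2 was 0.20, of the opposite sign.

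Vcan (1427256_at), which encodes the large chondroitin sulfate proteoglycan versican, did not separate the lines. Its values were 9.20, 9.38, 9.86 and 9.73 in 344SQ, 9.76, 9.26, 8.70 and 9.55 in 393LN, and 9.62, 9.41, 9.36 and 8.996 in 393P. All ranges overlapped, and the difference of 344SQ was 0.20 against 393P (95% interval -0.30 to 0.69) and 0.23 against 393LN (-0.27 to 0.72). Of its 7 other probe sets, 1421694_a_at and 1427257_at tracked it (r = 0.95 and 0.84), with differences of -0.36 and 0.02 for 344SQ against 393P. The remaining 5 were dim, with line means between 4.09, the floor of the scale, and 6.02. One of them, 1433043_at, gave -0.57 for 344SQ against 393P with no overlap of arrays (adjusted p = 0.0667).

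Across all members, 0 of the 17 other probe sets passed the test in each of the 3 comparisons (limma, adjusted over 34945 probe sets), where 7.62%, 7.42% and 1.81% of probe sets did.

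**Figure D3:**
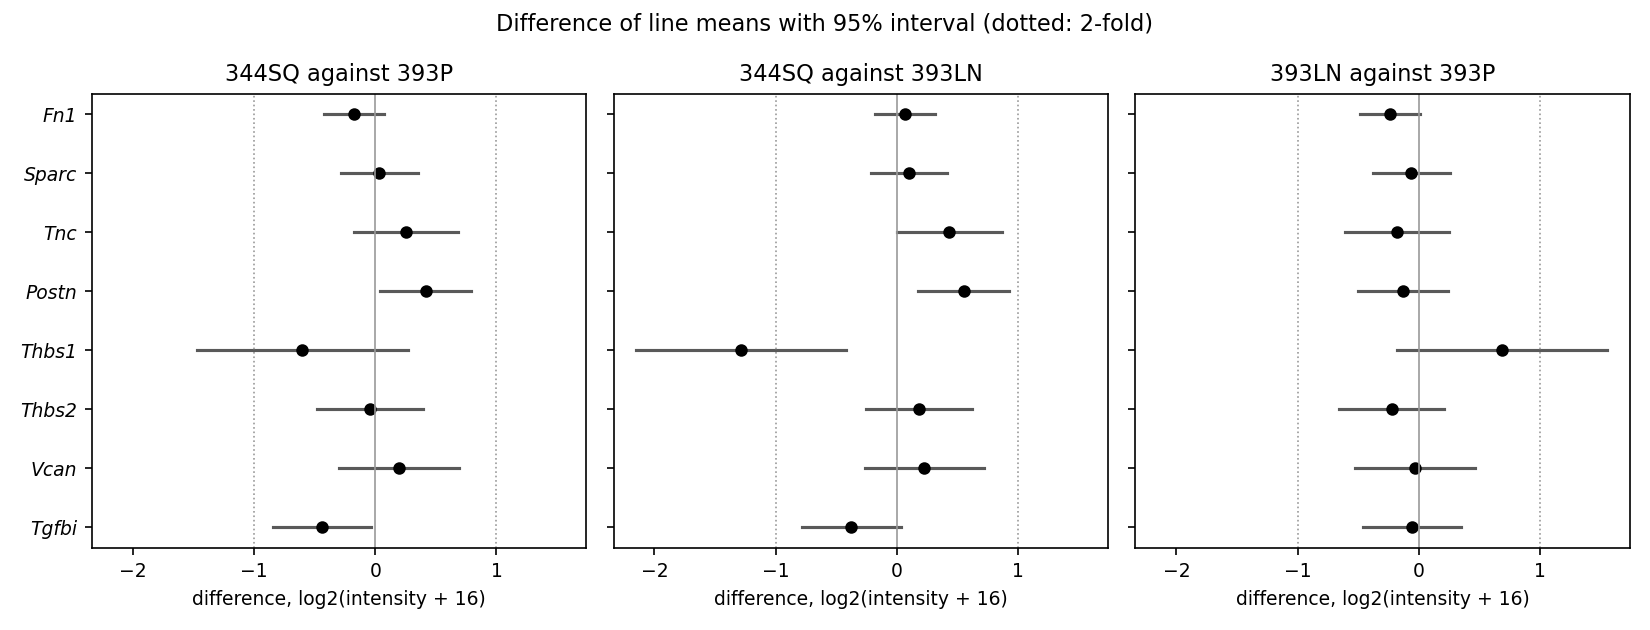
Difference between line means for each gene, in log2(intensity + 16) units, with its 95% interval from limma; the dotted lines mark 2-fold. Only the Thbs1 interval passes a dotted line, from -2.15 to -0.42 in 344SQ against 393LN, and 7 of 8 intervals lie between them in each panel.

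Within lines, several of the genes were high or low on the same arrays. With each line's mean subtracted, Fn1 and Sparc correlated with r = 0.78 (rho = 0.84) over the 12 arrays, Fn1 and Tnc with 0.75 (0.73), Sparc and Postn with 0.70 (0.61), Sparc and Tnc with 0.68 (0.83) and Tnc and Postn with 0.68 (0.72). The points share their tumour sample and array, so these are descriptions with no test. Vcan was close to unrelated to Tnc (r = 0.05) and to Thbs1 (-0.04). The chosen Thbs2 probe set ran against Thbs1 (r = -0.69, rho = -0.73).

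In the 393 lines, some arrays were at the end of their line in most of the genes. On 393LN replicate 3, 6 of the 8 were at their lowest of that line, where 24.3% of all genes were, and on 393LN replicate 4, 5 of the 8 were at their highest, against 17.1% of all genes. On 393P replicate 2, 6 of the 8 were highest, against 26.5%. In 344SQ, replicate 4 was lowest for Tnc, Postn, Thbs1 and Tgfbi, 4 of the 8, against 33.0%. The 8 genes are not independent of each other, so these counts carry no test.

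Fibroblast markers had the same end arrays in 393LN, and in part in 393P and 344SQ. This was not particular to them, since macrophage and in part endothelial markers, given below, shared end arrays too. The mean of the 10 measured markers, Pdgfra, Pdgfrb, Dcn, Lum, Thy1, Col1a1, Col1a2, Col3a1, Fap and Dpt, was 11.06 on 393LN replicate 3 and 11.60 on replicate 4, the lowest and highest of that line. In 393P it was highest on replicate 2, at 11.53, and lowest on replicate 4, at 10.89. Fn1, Tnc and Thbs1, by contrast, were lowest of 393P on replicate 1, where the marker mean was 11.37. Of all genes, 35.1% were lowest of 393P on that array and 35.6% highest, so 3 of the 8 lies near the background. In 344SQ the marker mean was lowest on replicates 1 and 4, at 11.56 on each. On replicate 1 Tnc, Postn and Thbs1 were highest of that line (as were 21.8% of all genes). On replicate 4 Tnc, Postn, Thbs1 and Tgfbi were lowest (33.0% of all genes). The marker mean was highest on replicate 3, at 11.87, as were Fn1, Sparc, Vcan and Tgfbi (25.7% of all genes). By line it lay between 11.56 and 11.87 in 344SQ, in 393LN between 11.06 and 11.60 and in 393P between 10.89 and 11.53. Of the 10 markers 0 passed the test in any comparison (limma). At an unadjusted p under 0.05 limma called 4, 4 and 0, against 23.6%, 25.7% and 15.7% of all genes. All 10 had positive differences in 344SQ against 393P and in 344SQ against 393LN, with medians of 0.33 and 0.41. In these bulk samples fewer cells of a type and less RNA per cell cannot be told apart, and the part of fibroblast content in the levels of Postn and Tnc was not tested.

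Markers of other cells that make or store these proteins gave the following. Macrophage markers (10 measured) lay between 10.88 and 11.64 in 344SQ, 11.29 and 11.86 in 393LN and 11.35 and 12.11 in 393P, and 1 of them, Cd14, was lower in 344SQ than in 393P (-0.75, adjusted p = 0.0385, limma). At an unadjusted p under 0.05 limma called 7, 3 and 0 of the 10 in the 3 comparisons. Of all genes it called 23.6%, 25.7% and 15.7%. In each 344SQ comparison 1 of the 10 macrophage markers had a positive difference, and the medians were -0.63 and -0.50. By array, the macrophage mean was lowest on 393LN replicate 3 (11.29) and highest on its replicate 4 (11.86). In 393P it was lowest on replicate 1 (11.35) and highest on replicate 2 (12.11). In 344SQ it was lowest on replicate 4 (10.88) and highest on replicate 1 (11.64). The endothelial mean was lowest on 393LN replicate 3, 393P replicate 4 and 344SQ replicate 4, and highest on 393LN replicate 1, 393P replicate 2 and 344SQ replicate 3. For platelets, which store thrombospondin-1, the 5 markers lay between 8.12 and 8.87, 8.57 and 8.81, and 8.85 and 8.98, with Ppbp lower in 344SQ than in 393P (-2.05, adjusted p = 0.0139). The other platelet markers did not pass, and 3 of the 5, Pf4, Itga2b and Gp9, had positive differences in both 344SQ comparisons, with Pf4 at 0.50 (adjusted p = 0.334) and 0.80 (adjusted p = 0.0974). Of 7 endothelial and 7 smooth muscle markers 0 passed in any comparison (limma; 0 endothelial, and 2, 0 and 1 smooth muscle, at an unadjusted p under 0.05). Of 7 skeletal muscle markers and the 3 of 5 fat cell markers measured, 0 passed, also at an unadjusted p under 0.05 (limma). No marker was at the floor on all arrays, and the part of these cells in the member levels was not tested. The mean over the 7 carcinoma markers, Krt8, Krt18, Krt19, Cdh1, Epcam, Cldn4 and Cldn7, was taken per array. It lay between 11.29 and 11.95 in 344SQ, 13.12 and 13.43 in 393LN and 13.11 and 13.52 in 393P. Epcam, Cldn4 and Cldn7, at 9.63, 7.83 and 9.05 in 344SQ, were lower there than in both 393 lines. Krt8, Krt18, Krt19 and Cdh1 did not pass in either 344SQ comparison. Their differences were -0.0025, -0.06, -0.20 and 0.12 against 393P, and 0.17, 0.03, -0.06 and 0.18 against 393LN.

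For each gene, those 2 of 18179 others with the most similar pattern within lines were picked by Pearson r over the 12 arrays, line means subtracted. Sparc was closest to Col1a2, a chain of type I collagen (r = 0.95, rho = 0.93), and Nbdy (0.93, 0.78). Fn1 was closest to Ppib, a prolyl isomerase of the endoplasmic reticulum that acts on collagen (0.94, 0.93), and the zinc transporter gene Slc39a14 (0.90, 0.92). Tnc was closest to the interferon-induced Ifi27 (0.94, 0.90) and Lratd2 (0.90, 0.83), and Postn to the NF-kappaB subunit gene Rela (0.91, 0.88) and the interleukin-17 receptor subunit gene Il17rc (0.88, 0.89). Thbs1 was closest to Grina (0.96, 0.92) and the peptidase gene Prcp (0.96, 0.95), and Tgfbi to Dram1 (0.95, 0.88) and Gpr171 (0.95, 0.96). Thbs2 was closest to the SUMO protease gene Senp2 (0.96, 0.85) and Mettl17 (0.95, 0.82), and Vcan to Man2c1os (0.92, 0.91) and Lsm10 (0.90, 0.90). These pairs are the highest of many by choice, so no p is given; without the 2 arrays farthest from the median, r ranged from 0.77 for Il17rc to 0.96 for Senp2.

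Genes that work with these proteins were counted in 6 lists, and as a whole they passed the test at about the rate of all genes. Of 87 such genes measured, 9 (10.3%) passed in 344SQ against 393P, where 10.5% of all genes did, and 11 (12.6%) in 344SQ against 393LN, against 10.9%. The counts of single lists are too small to be set apart from these shares. Among 19 other matricellular genes, 2 rose and 0 fell in 344SQ against both other lines. Thbs4, the gene of thrombospondin-4, a pentameric paralog, stood at 8.60 ± 0.49 (SD, n = 4) in 344SQ, 7.52 ± 0.33 in 393LN and 7.49 ± 0.29 in 393P. It rose by 1.10 (SE 0.24, 2.15-fold, adjusted p = 0.0128, limma) against 393P and by 1.07 (2.11-fold, adjusted p = 0.0155) against 393LN, with no overlap of arrays, and kept both calls under each alternative in which it was tested. Fstl1, a secreted relative of SPARC, rose by 0.56 (adjusted p = 0.0395) and 0.53 (adjusted p = 0.0468). The first of these calls ended when any 1 of replicates 2, 3 and 4 of 344SQ or 393P was left out (highest adjusted p over the alternatives 0.115). The second ended when any 1 array other than 393LN replicate 4 and 393P replicate 1 was left out (highest 0.122). The paralog Thbs3 had differences of 0.07 (adjusted p = 0.915) and 0.46 (0.324), and Sparcl1, the paralog of Sparc, of -0.45 (0.295) and -0.08 (0.873).

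Among 17 measured genes of microfibrils and elastic fibres, 0 rose and 1 fell in 344SQ against 393P, and 2 rose and 1 fell against 393LN. Fbln5, whose protein guides elastic fibre assembly, rose by 1.06 against 393LN (9.99 ± 0.49 against 8.93 ± 0.18, adjusted p = 0.0263; 0.63 with the mean of its probe sets), and the latent TGF-beta binding protein gene Ltbp4 rose by 0.48 (adjusted p = 0.0210). Its relative Ltbp2 fell by 1.12 (9.56 ± 0.51 against 10.68 ± 0.43, adjusted p = 0.0210). The differences of Fbln5, Ltbp4 and Ltbp2 from 393P had the same signs and did not pass. They were 0.80 (adjusted p = 0.0833, limma), 0.37 (0.0648) and -0.52 (0.277). Against 393P, Adamtsl2, a microfibril-associated glycoprotein gene, fell by 0.51 (adjusted p = 0.0436). Each call ended when single arrays were left out: any 1 of 344SQ replicates 1 and 3 and 393LN replicates 1, 2 and 3 for Fbln5, 393LN replicate 2 for Ltbp4, any 1 of 344SQ replicates 2 and 4 and 393LN replicates 1 and 2 for Ltbp2, and any 1 array other than 344SQ replicate 2 and 393LN replicate 3 for Adamtsl2. In that order their highest adjusted p over the alternatives were 0.0748, 0.0597, 0.0674 and 0.0974. Fbn2, which encodes a fibrillin, had differences of 0.44 (adjusted p = 0.136) against 393P and 0.52 (0.0783) against 393LN.

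Among 18 receptors, 0 rose and 2 fell in 344SQ against each other line. Itga9, an integrin chain that binds tenascin-C, was at 7.70 ± 0.12 in 344SQ, 8.31 ± 0.08 in 393LN and 8.18 ± 0.14 in 393P, and it fell by 0.48 (adjusted p = 0.0112, limma) and 0.61 (adjusted p = 0.00306). With the mean of all its probe sets these became -0.25 (adjusted p = 0.375) and -0.20 (0.457), so its probe sets disagree. Itga3, a chain of a laminin receptor that also binds thrombospondin-1, fell by 0.52 (adjusted p = 0.0160) against 393P and 0.41 (adjusted p = 0.0476) against 393LN. With the mean of its probe sets the changes were -0.69 (adjusted p = 0.138) and -0.83 (0.0703); the first call also ended without 393P replicate 3, and the second without any 1 array other than 344SQ replicate 2, 393LN replicate 4 and 393P replicate 1.

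The best-known receptors of the group did not pass. The fibronectin receptor chains Itga5 and Itgb1 had differences of 0.19 (adjusted p = 0.702) and -0.02 (0.976) against 393P, and of 0.02 and -0.01 against 393LN. Itgav, which encodes the integrin chain shared by receptors for periostin, vitronectin and fibronectin, had 0.51 (adjusted p = 0.0564) and 0.47 (0.0745). It lay near the threshold: under 10 settings that keep all arrays it passed in 7 against 393P and in 4 against 393LN, and it also passed against 393P without 344SQ replicate 4 or 393P replicate 2. With the mean of its probe sets it was 0.21 in both (adjusted p = 0.464 and 0.441). Cd44, the hyaluronan receptor, had 0.12 (adjusted p = 0.627) and 0.22 (0.265).

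Of 11 measured partners of versican and hyaluronan, 1 rose and 0 fell in both comparisons: Chsy1, which encodes a synthase of the chondroitin sulfate chains carried by versican. It stood at 12.80, 12.61, 12.51 and 12.19 in 344SQ, 11.40, 11.12, 10.95 and 11.31 in 393LN, and 11.07, 10.98, 10.92 and 10.76 in 393P. Every 344SQ array was above every array of the other lines. It was 3.03-fold higher than in 393P (difference 1.60, SE 0.14, adjusted p = 2.98e-05, limma) and 2.53-fold higher than in 393LN (1.34, adjusted p = 0.00016), and kept both calls under all alternatives tried.

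Of 14 matrix-cleaving enzymes, 0 rose and 3 fell in 344SQ against 393P, and 1 rose and 1 fell against 393LN. Plau, which encodes the plasminogen activator urokinase, fell by 2.39 (5.26-fold, adjusted p = 0.000147) and 2.01 (4.02-fold, adjusted p = 0.000703) and kept both calls throughout. Adamts1, a protease that cuts versican and thrombospondin-1, was at 9.19 ± 0.17 in 344SQ, 9.67 ± 0.29 in 393LN and 10.15 ± 0.36 in 393P. It fell by 0.96 against 393P (1.95-fold, adjusted p = 0.00675), which held under all alternatives, and its difference of -0.48 from 393LN did not pass (adjusted p = 0.127). The matrilysin gene Mmp7 fell by 0.45 against 393P (adjusted p = 0.0221), a call that ended when any 1 of 344SQ replicates 1 and 3 and 393P replicates 2 and 3 was left out (highest adjusted p 0.0687). Mmp14, the gene of a membrane-bound collagenase, rose by 0.51 against 393LN (adjusted p = 0.0176), and with the mean of its probe sets had 0.52 (adjusted p = 0.167).

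Of the 8 small leucine-rich proteoglycans, collagen-binding neighbours of these proteins, 0 passed in 344SQ against 393P (limma). At an unadjusted p under 0.05 limma called 3 there, against 23.6% of all genes. Against 393LN, 0 rose and 1 fell. That 1 was Aspn, the gene of asporin, which fell by 0.66 (adjusted p = 0.0434); the call ended when any 1 array other than 344SQ replicate 2 and 393P replicate 1 was left out (highest adjusted p 0.117). In 393LN against 393P, 0 genes of the 6 lists passed limma's test, where 2.45% of all genes did. At an unadjusted p under 0.05 limma called 15.7% of all genes. Of the lists it called 4 of 19 other matricellular genes, 2 of 17 of microfibrils and 1 of 18 receptors. It also called 1 of 11 partners of versican, 3 of 14 enzymes and 2 of 8 leucine-rich proteoglycans.

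**Figure D4:**
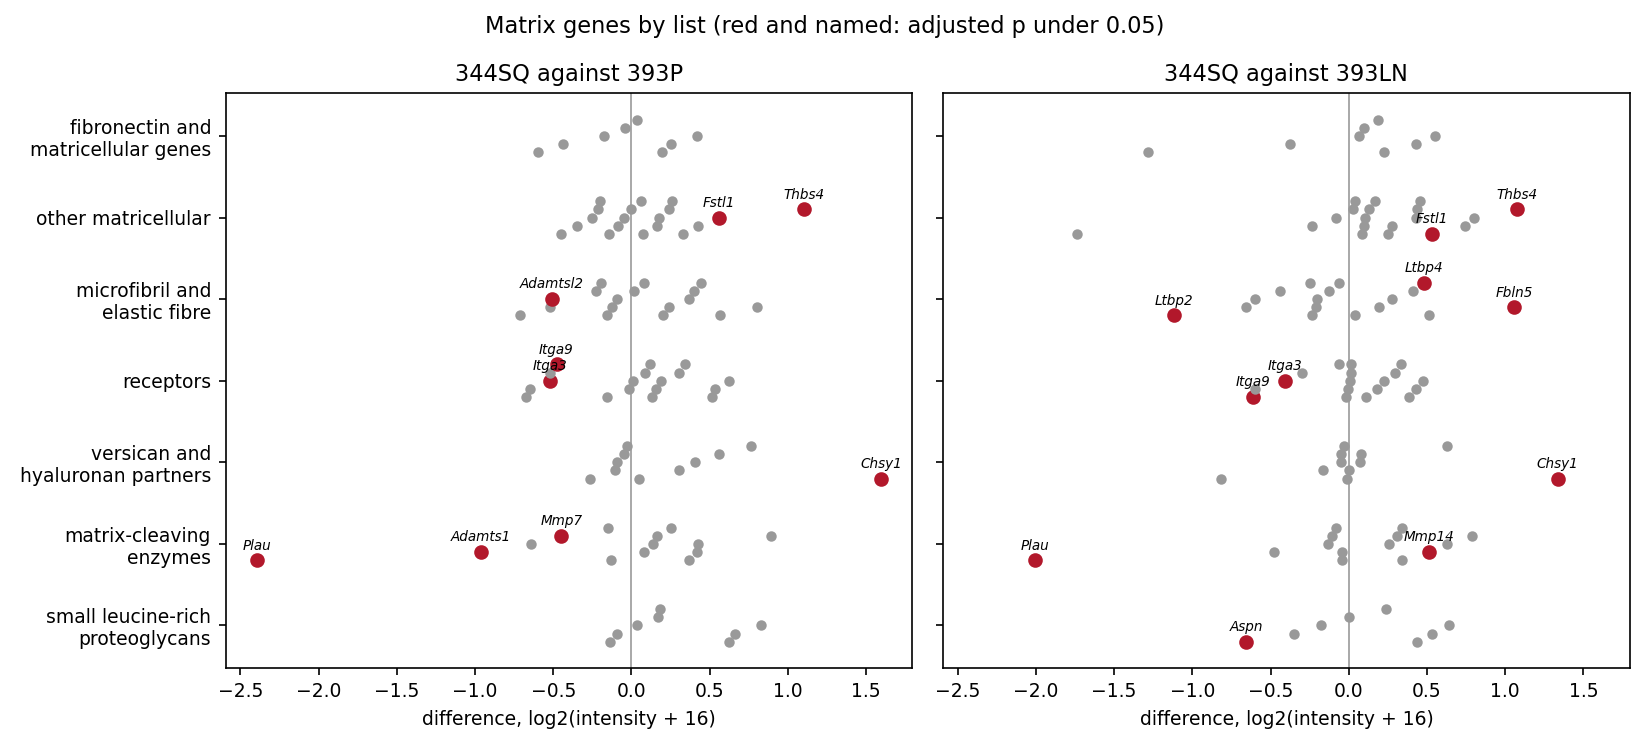
Difference of 344SQ from 393P (left) and from 393LN (right) for every measured gene of the fibronectin and matricellular group and of the 6 lists of partners, in log2(intensity + 16) units; red, named points have an adjusted p under 0.05 (limma). The top row has no red point, with 0 of 8 in both panels, while Chsy1 lies at 1.60 and 1.34 and Plau at -2.39 and -2.01.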

How the data were processed

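The values are probe set intensities on a linear scale, as deposited by the authors. How arrays were summarised and scaled was not given in the sources used here. Each value was 2 raised to a power with 2 decimals, with a floor of 1, and was taken as log2(intensity + 16), on which array medians lay between 7.34 and 7.43, so no further scaling was applied. The number of arrays limits the precision. The design text names the 430A chip, while the table holds 45101 probe sets. Of these, 34945 had 1 symbol in GEO's annotation, 932 several, 9160 none and 64 were controls. The brightest probe set of each of 18193 genes was tested with limma 3.58.1 in R 4.3.3 (lmFit and eBayes, 1 mean per line, 12 arrays, 9 residual degrees of freedom, two-sided, Benjamini-Hochberg adjustment). Genes called risen or fallen had an adjusted p under 0.05; folds are on the log2(intensity + 16) scale, which understates changes of dim genes. Other probe sets were fitted separately over all 34945. Members, lists and the naming rule were chosen with earlier results of these data known. The rule named all members, up to 5 passing genes of smallest p per list, and a fixed set: Itga5, Itgav, Itgb1, Cd44, Fbn2, Sparcl1, Thbs3 and Thbs4. The arrays of Chsy1 were printed after its values were seen. Replicate numbers follow the order of deposit and only name the arrays. Scripts were tested on simulated data. Alternatives were quantile or median scaling, other pseudocounts, leaving out dim genes, the mean of a gene's probe sets, only the lines compared, other limma priors, array weights, and leaving out each array.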

Additional observations from a re-analysis of the deposited data

Results flagged for a closer look

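In 138 groups of 4 arrays, 6 had 1 array far from the others by Dixon's test; chance flags about 1 in 20 groups. Tgfbi was at 11.63 on 344SQ replicate 4, where the other 3 lay between 12.12 and 12.18. Itgb1 was at 11.19 on 393P replicate 1, the array with the high actin ratio, against 12.06 to 12.19. Thbs4 was at 7.04 on 393LN replicate 3 against 7.64 to 7.74, and Mmp7 at 7.96 on 393LN replicate 2 against 7.67 to 7.70. The Vcan probe set 1459767_x_at, at the floor of 4.09 elsewhere, read 4.11 on 344SQ replicate 4 and 4.31 on 393LN replicate 2.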

How the results depend on the processing

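No paired analysis was possible because the labels give nothing that pairs samples of different lines. Of 240 differences of the 8 genes under 10 settings that keep all arrays, 227 kept their direction and side of the threshold, 9 passed it newly and 4 turned sign without being called; of 288 with 1 array left out, 272, 3 and 13. The count of 8 genes passing in 344SQ against 393P was 1 with array weights (Thbs1) and 0 to 1 with 1 array left out. In 344SQ against 393LN it was 1 with median-centred arrays or a trended robust prior (Postn), 1 with only the 2 lines compared or array weights (Thbs1), 2 with the dimmest 25% or 50% of genes left out (Thbs1 and Postn), and 0 to 1 with 1 array left out. In 393LN against 393P it stayed 0. Leaving out dim genes reduces the number adjusted over; the cause of the other changes was not tested.

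The signs that turned were of differences that did not pass the test. In 344SQ against 393P the turned values were Sparc -0.0029, Aspn 0.036 and Thbs3 -0.20 with array weights, and Thbs2 0.20 and Vcan -0.079 with the mean of probe sets. With 1 array left out, Sparc ran from -0.032 to 0.12, Thbs2 from -0.14 to 0.088, Itgb1 from -0.25 to 0.081 and Thbs3 from -0.12 to 0.24. In 344SQ against 393LN they were Itga5 -0.0019 with array weights, Itgb1 0.0071 and Sparcl1 0.012 with quantile scaling, and Itgb1 0.011 with median-centred arrays; with 1 array left out, Sparc ran from -0.0025 to 0.20, Itga5 from -0.049 to 0.11, Itgb1 from -0.11 to 0.046 and Sparcl1 from -0.20 to 0.10. In 393LN against 393P, Vcan was 0.040 with array weights; with 1 array left out, Sparc ran from -0.17 to 0.037, Vcan from -0.18 to 0.18 and Tgfbi from -0.17 to 0.086.

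Over all genes, the 1907 calls of 344SQ against 393P became 3320 with array weights and 1259 without 393P replicate 3, the 1984 against 393LN became 1167 without 344SQ replicate 2, and the 446 of 393LN against 393P became 174 with only those lines, 883 with array weights and 156 to 438 with 1 array left out.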
